A study of Homo sapiens with 6 samples.

Results

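The genes described here are 44 genes of the kinetochore, the centromere, the chromosomal passenger complex and the spindle checkpoint, measured by mRNA sequencing in Rh30 cells. They were chosen by symbol from a list by function, and all 44 were found among the 35268 named genes of the matrix. Rh30 is an established cell line from a fusion-positive rhabdomyosarcoma (FP-RMS), a tumor driven by the PAX3-FOXO1 fusion protein. The drug YK-4-279's effect was measured: cells of the treated group received 1 µM of this small molecule, described as an inhibitor of ETS factor interactions and dissolved in DMSO, and cells of the control group received DMSO alone. Both treatments lasted 24 hours, with 3 libraries in each group, and the labels name no genetic change in either. The comparison asks how the drug changes gene expression in these cells. Labels and methods call the libraries replicates without saying that the cultures were separate, so that p-values measure the spread between these libraries, which may be technical. The libraries held between 16724650 and 24677433 reads on named genes, of which between 67145 and 98263 lay on the 44 genes.

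The kinetochore is the protein assembly that ties a chromosome to the spindle. Its base is centromeric chromatin marked by the histone variant CENP-A, on which a constitutive network of CENP proteins sits, and its outer face, made of the Knl1, Mis12 and Ndc80 complexes, grips microtubules. The spindle assembly checkpoint reads kinetochores without attachment and holds back anaphase, while the chromosomal passenger complex with the Aurora B kinase releases faulty attachments. Many of these genes are transcribed mainly in G2 and mitosis, so that their mRNA levels are known to follow the share of dividing cells in a culture. In bulk RNA, fewer cells in a phase and less RNA per cell cannot be told apart.

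One library, DMSO replicate 1, was unlike the rest. Its mean correlation with them across genes was 0.989, against 0.992 to 0.993 for each of the other 5, and values without it are given where leaving it out changed a call or moved a fold change by over 1.5 times. Of 8 genes listed as rhabdomyosarcoma markers, which hold muscle lineage genes and the fusion partner FOXO1, a broadly expressed gene, MYOD1, MYOG, DES, PAX3, FOXO1, CDH15 and CHRNA1 had at least 1549.8 normalized counts in every library, and MYF5 was at 0 in 5 of the 6. Among 10 markers of blood, epithelial, endothelial, liver and fibroblast cells, PTPRC, CD3E, KRT5, KRT14 and ALB had at most 7 reads in any library, and PECAM1, CDH5, LUM and EPCAM at most 88.3 normalized counts. COL1A1, a collagen gene of this list, had 579 to 691 normalized counts with DMSO and 774 to 824 with the drug, a log2 fold change of 0.34 (adjusted p = 0.0375 by limma).

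After the drug, mRNA of 15 of the kinetochore and checkpoint genes was lower. Of the 44 genes, 15 fell at an adjusted p under 0.05 (limma), none rose, and 29 did not pass the test. Over all 13930 genes tested, 2.15% were called lower and 1.26% higher (3.41% in either direction). The 15 were SPC25, CENPK, SKA3, SKA1, KNTC1, NDC80, CENPU, NUF2, CENPI, KNL1, AURKB, CENPN, SKA2, INCENP and BUB3, with falls in the mean of 16.3% to 31.6%. The median log2 fold change over the 44 genes was -0.26, against -0.01 over all genes tested. For 43 of the 44 genes the log2 fold change was below 0, against 52.0% of all genes tested, MAD1L1 being the exception. In 35 genes all values with the drug were under all values with DMSO, an order that 15.1% of all genes tested showed, and in 8 genes (NSL1, PMF1, MIS12, CENPT, CENPE, ZWILCH, BIRC5 and SGO2) the groups overlapped. For 19 of the genes without a call, the 95% confidence interval of the fold change still lay wholly below 0. An interval that excludes 0 is the same as an unadjusted p under 0.05 by limma, which 18.7% of all genes tested had in either direction.

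Added over the 44 genes, the sums came to 91994, 81064 and 82044 normalized counts with DMSO and to 68244, 72963 and 71942 with the drug, in the order of the replicates. The sums did not overlap between the groups. The mean sum with the drug was 83.6% of that with DMSO, and 87.1% when DMSO replicate 1 was left out. Such sums weigh genes by their counts, and CENPF was the largest single part, with a mean of 17455 with DMSO. The number of genes called depended on single libraries. Without DMSO replicate 1, 26 of the 44 genes fell, all 15 among them (8.46% of all genes tested were then called lower), and the median log2 fold change over all 44 genes was -0.20. Without drug-treated replicate 1, 2 or 3, limma called 0, 0 and 1 of them (0.0287%, 0.0503% and 0.129% of all genes), while 23, 32 and 28 had an unadjusted p under 0.05 (11.7%, 13.7% and 13.2% of all genes), and the median lay between -0.28 and -0.22. Without DMSO replicate 3 limma called 8 (1.02% of all genes), and with a prior variance that is constant over expression levels it called none (0.0215% of all genes), while 27 had an unadjusted p under 0.05 (16.1% of all genes). On the recovered reads, edgeR called 13 of the genes lower (1.86% of all genes) and DESeq2 17 (2.97%).

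**Figure D1:**
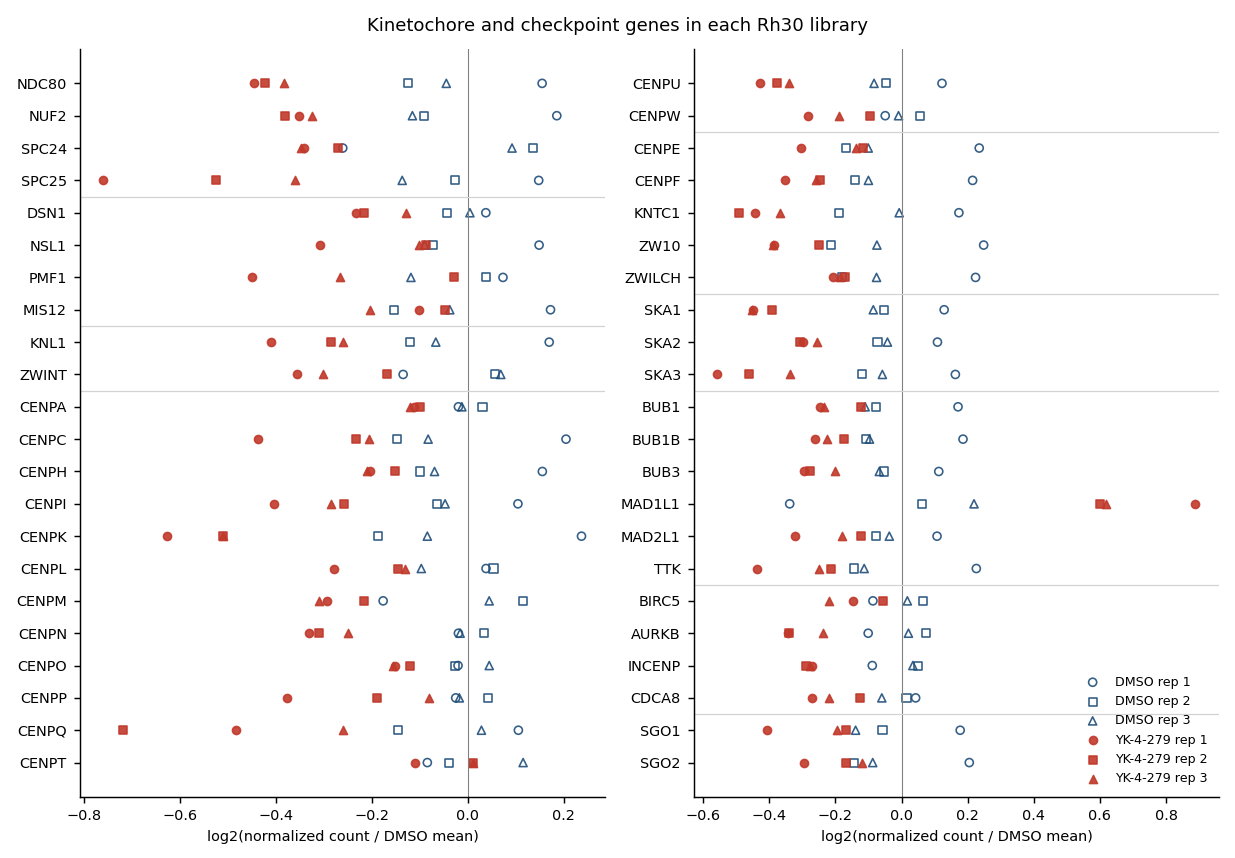
Each row is 1 of the 44 genes, grouped by complex with grey lines between the groups, and each symbol is 1 library, placed on the horizontal axis by the log2 ratio of its normalized count to the mean of the 3 DMSO libraries. Open blue symbols are DMSO and filled red symbols are the drug. In 35 rows all red symbols lie left of all blue ones, MAD1L1 is the row with red symbols to the right, and the open circle of DMSO replicate 1 is the rightmost blue symbol in 30 rows.

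**Figure D2:**
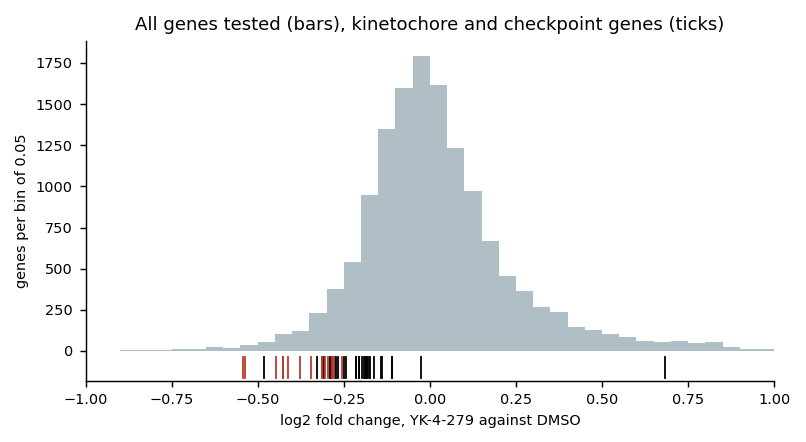
Grey bars count all genes tested by log2 fold change of drug against DMSO in bins of 0.05 (86 genes beyond the axis are not drawn), and ticks under the axis mark the 44 kinetochore and checkpoint genes, red where the adjusted p is under 0.05. The ticks lie between -0.54 and -0.03 except that of MAD1L1 at 0.68, while the bars center near 0.

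Promoters of the genes were read for short motifs that are known at cell cycle genes. RefSeq promoter entries (GRCh38.p14, 250 bases before to 50 after the start) were matched for 36 of the 44 genes. KNL1, CENPH, CENPL, CENPM, KNTC1, BUB3, TTK and BIRC5 had no entry. The CHR element TTTGAA, bound by complexes of the DREAM and MuvB family, was found on either strand in 16 of the 36 (44.4%), against 13.7% of all genes tested with a promoter entry. CCAAT, the core of the NF-Y box, was found in 24 of 36 (66.7%, against 43.5%), and both motifs together in 10 of 36 (27.8%, against 5.76%). One of the E2F forms TTCCCGC or TTGGCGC or TTCGCGC was found in 11 of 36 (30.6%, against 21.1%). CCGGAAG, the site of ETS factors, was found in 6 of 36 (16.7%, against 21.9%). These matches are descriptions of letters, and binding was not measured here.

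The 150 bases before the start are shown for 5 genes that fell, with every match in capitals: SPC25 and CENPK, which had the largest falls, SKA1 and SKA3 of the complex whose members all fell, and INCENP, whose stretch holds a CHR element beside NF-Y boxes. SPC25 (chr2:168890431-168890580, minus strand) has NF-Y boxes and an E2F site, CENPK (chr5:65563169-65563318, minus strand) has NF-Y boxes, and SKA1 (chr18:50374896-50375045, plus strand) has an ETS and an E2F site. SKA3 (chr13:21176553-21176702, minus strand) has none of these motifs in the stretch, and neither have NDC80, NUF2 and CENPI, which fell as well and are not shown. A gene was counted as having a motif where any of its 300-base entries held it. Counted so, a CHR element outside the stretch, or across its end at the start site, was found for SPC25, SKA1, SKA3, NDC80 and NUF2 as well. CENPI had none of the motifs, but its stretch lies at chrX:101100908-101101057, inside the GENCODE gene, which begins at 101098188. The 150-base stretches of SPC25, NUF2, AURKB and CENPN also lie inside their GENCODE genes, so that these entries may miss other starts. INCENP lies at chr11:62123861-62124010 on the plus strand.
SPC25: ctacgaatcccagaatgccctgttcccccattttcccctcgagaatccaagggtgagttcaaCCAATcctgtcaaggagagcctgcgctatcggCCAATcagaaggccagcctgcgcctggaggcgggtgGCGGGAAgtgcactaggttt
CENPK: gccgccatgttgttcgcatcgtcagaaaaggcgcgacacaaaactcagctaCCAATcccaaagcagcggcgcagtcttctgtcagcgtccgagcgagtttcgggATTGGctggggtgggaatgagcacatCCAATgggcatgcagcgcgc
SKA1: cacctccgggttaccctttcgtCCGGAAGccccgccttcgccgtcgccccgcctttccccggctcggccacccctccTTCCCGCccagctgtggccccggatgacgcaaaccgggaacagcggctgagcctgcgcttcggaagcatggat
SKA3: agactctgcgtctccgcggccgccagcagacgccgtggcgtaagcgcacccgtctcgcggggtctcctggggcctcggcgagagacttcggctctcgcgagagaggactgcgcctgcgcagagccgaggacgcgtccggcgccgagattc
INCENP: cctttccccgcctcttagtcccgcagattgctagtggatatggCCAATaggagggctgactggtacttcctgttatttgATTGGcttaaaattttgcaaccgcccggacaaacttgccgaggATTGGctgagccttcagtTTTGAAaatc

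The Ndc80 complex, the rod that binds microtubules directly, fell in 3 of its 4 members. SPC25, on chromosome 2 from 168834132 to 168913371 of hg38, is a globular subunit at the end that faces the chromosome, and had normalized counts of 873, 773 and 716 with DMSO (replicates 1, 2 and 3) and of 465, 548 and 613 with the drug (replicates 1, 2 and 3). Each drug-treated library was below each DMSO library, and the drug-treated libraries were spread about as widely as the DMSO libraries. Its mean fell from 787 ± 79.0 to 542 ± 74.2 (mean ± SD of normalized counts, n = 3 each), a change of -0.54 on the log2 scale (SE 0.10, adjusted p = 0.0144 by limma). NDC80, on chromosome 18 from 2571557 to 2616635, carries the microtubule-binding head, and had 1714, 1411 and 1492 with DMSO and 1129, 1149 and 1181 with the drug, in normalized counts of replicates 1, 2 and 3. All drug-treated values were lower, with a narrow spread, while DMSO replicate 1 was the highest, and NDC80 had a change of -0.41 on the log2 scale (SE 0.08, adjusted p = 0.0119 by limma). NUF2, the partner of NDC80, had 1318, 1088 and 1069.6 with DMSO and 908, 890.0 and 925 with the drug, in normalized counts of replicates 1, 2 and 3. Its groups did not overlap either, and its log2 fold change was -0.34 (95% interval from -0.52 to -0.17, adjusted p = 0.0393 by limma). SPC24, the partner of SPC25, did not pass the test, with 811, 1067 and 1035 with DMSO and 767, 805 and 763 with the drug, in normalized counts of replicates 1, 2 and 3. Here DMSO replicate 1 was the lowest of its group and close to the drug-treated libraries, and the log2 fold change was -0.31 (95% interval from -0.52 to -0.10, adjusted p = 0.0979 by limma). Without DMSO replicate 1, the fold changes of SPC25, NDC80, NUF2 and SPC24 were -0.47, -0.33, -0.25 and -0.43, and their adjusted p by limma 1.5e-05, 6.5e-06, 0.00136 and 3.3e-07.

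In the Mis12 complex, the linker between inner and outer kinetochore, none of 4 members passed the test. DSN1 had its highest mean and did not overlap between groups, with 1722, 1628 and 1683 with DMSO and 1428, 1444 and 1535 with the drug, in normalized counts of replicates 1, 2 and 3, and a log2 fold change of -0.19 (95% interval from -0.33 to -0.06, adjusted p = 0.116 by limma). NSL1, PMF1 and MIS12 overlapped between the groups, with log2 fold changes of -0.16, -0.24 and -0.11 and 95% confidence intervals that included 0 (adjusted p of 0.332, 0.299 and 0.561 in limma). With DMSO replicate 1 left out, DSN1 passed the test at -0.17 (adjusted p = 0.0140 by limma), while NSL1 and MIS12 moved to -0.08 and -0.02. PMF1 shares 53.7% of the bases of its canonical transcript with the read-through gene PMF1-BGLAP on the same strand, which was listed at 0 in all libraries, so that the value of PMF1 is uncertain. In the Knl1 complex, KNL1, the scaffold that recruits BUB proteins, on chromosome 15 from 40594020 to 40664342, had 4660.2, 3811 and 3956 with DMSO and 3119.9, 3400.1 and 3459.7 with the drug, in normalized counts of replicates 1, 2 and 3. The groups did not overlap, and its mean fell from 4142 ± 454 to 3327 ± 181 (mean ± SD of normalized counts, n = 3 each), a change of -0.31 on the log2 scale (SE 0.08, adjusted p = 0.0409 by limma). ZWINT, its partner, had 1966, 2244 and 2264 with DMSO and 1686, 1920.1 and 1752 with the drug, in normalized counts of replicates 1, 2 and 3. No drug-treated library reached the DMSO libraries, although drug-treated replicate 2 came close to DMSO replicate 1, and the log2 fold change was -0.27 (95% interval from -0.43 to -0.11, adjusted p = 0.0625 by limma). ZWINT passed at -0.34 once DMSO replicate 1 was left out (adjusted p = 1.3e-06 by limma).

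Among the 14 genes of CENP-A and the constitutive network, 4 fell, 10 did not pass the test, and all 14 had log2 fold changes below 0 (median -0.24). CENPK, on chromosome 5 from 65517766 to 65563168, is a subunit of the CENP-H/I/K/M group and had normalized counts of 1342, 999 and 1074 with DMSO (replicates 1, 2 and 3) and of 737, 799.8 and 799 with the drug (replicates 1, 2 and 3). Each drug-treated value was below each DMSO value without overlap, and the mean fell from 1138 ± 180.0 to 779 ± 36.2 (mean ± SD of normalized counts, n = 3 each), a change of -0.54 on the log2 scale (SE 0.10, adjusted p = 0.0110 by limma). CENPU, on chromosome 4 from 184694085 to 184734130, is a subunit of the CENP-O/P/Q/U/R group and had 924, 821 and 802 with DMSO and 632, 654 and 671 with the drug, in normalized counts of replicates 1, 2 and 3. Its groups did not overlap, and it had a change of -0.38 on the log2 scale (SE 0.08, adjusted p = 0.0204 by limma). CENPI, a partner of CENPK, had 1376, 1224 and 1238 with DMSO and 967, 1069 and 1051 with the drug, in normalized counts of replicates 1, 2 and 3, and its drug-treated values all lay below those of DMSO, with a change of -0.31 on the log2 scale (SE 0.07, adjusted p = 0.0350 by limma). CENPN, which recognizes CENP-A nucleosomes together with CENPL, had 679.6, 705 and 681 with DMSO and 548, 555 and 579 with the drug, in normalized counts of replicates 1, 2 and 3. In CENPN the DMSO libraries were close together and DMSO replicate 1 was not higher than the others, and CENPN had a change of -0.30 on the log2 scale (SE 0.07, adjusted p = 0.0438 by limma).

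CENPO had the highest mean normalized count of the 14, with 1698, 1692 and 1777 with DMSO and 1550.1, 1584 and 1547 with the drug, in normalized counts of replicates 1, 2 and 3. Its groups did not overlap, but the difference was small and did not pass the test, with a log2 fold change of -0.14 (95% interval from -0.27 to -0.01, adjusted p = 0.228 by limma). CENPA, the centromeric histone itself, had 925, 958 and 930.1 with DMSO and 868, 876 and 862 with the drug, in normalized counts of replicates 1, 2 and 3. All 3 drug-treated values were below the DMSO values, by a fold change of -0.11 (95% interval from -0.25 to 0.03, adjusted p = 0.396 by limma). CENPQ had a larger fold change than CENPU without passing the test, with 231, 194 and 219 with DMSO and 153, 130.4 and 179 with the drug, in normalized counts of replicates 1, 2 and 3. The drug-treated libraries of this gene with few reads were spread widely, and its log2 fold change was -0.48 (95% interval from -0.77 to -0.19, adjusted p = 0.0662 by limma). CENPT, which forms a direct bridge to the Ndc80 complex, overlapped between groups, with 279.9, 289 and 321 with DMSO and 275, 299 and 299 with the drug, in normalized counts of replicates 1, 2 and 3. Its log2 fold change was -0.03 (95% interval from -0.24 to 0.18, adjusted p = 0.917 by limma), the value nearest to 0 of the 44 genes. The other members, CENPC, CENPH, CENPL, CENPM, CENPP and CENPW, lay between -0.28 and -0.18, none of them past the threshold, and none overlapped between the groups. CENPM, CENPO and CENPQ passed the test without DMSO replicate 1, at -0.35, -0.15 and -0.43 (adjusted p = 1.3e-04, 0.0290 and 0.0210 by limma). CENPC, CENPH and CENPT moved to -0.18, -0.10 and -0.07 and stayed without a call. CENPP and CENPO share 45.5% and 36.2% of their canonical transcripts with genes on the opposite strand, and CENPU shares 20.9%. Among all 44 genes, SGO1, CENPT and ZWILCH share 19.3%, 16.1% and 10.7%, and CENPL, CENPN and MIS12 share 8.54%, 6.95% and 4.76%. ZWILCH shares exon bases with RPL4, which had a mean of 52915 normalized counts. Such sharing matters only where counting ignored strand, a setting not given in the sources used here. CENPN, one of the genes that fell, shares 18.2% of its canonical transcript on the same strand with ENSG00000261061, a long noncoding RNA, and BUB1B of the checkpoint shares 10.6% on the same strand, so that their values are uncertain to that extent with either strand setting. GENCODE also names pseudogenes of CENPC, CENPI, CENPN, CENPP and CENPU here, and of SKA2, BUB1, BUB3, MAD2L1, AURKB and SGO1 among the other genes, with which reads may be shared.

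Of the motors and corona proteins that cover the outer kinetochore before attachment, 1 of 5 fell. KNTC1, also called ROD, the large subunit of the RZZ complex that brings dynein and the MAD proteins to kinetochores, lies on chromosome 12 from 122527246 to 122626396 and had normalized counts of 2025, 1575 and 1787 with DMSO (replicates 1, 2 and 3) and of 1321, 1277 and 1393 with the drug (replicates 1, 2 and 3). The groups were well apart, with the mean falling from 1796 ± 225 to 1330.3 ± 58.5 (mean ± SD of normalized counts, n = 3 each), a change of -0.43 on the log2 scale (SE 0.08, adjusted p = 0.0163 by limma). The other RZZ subunits did not pass the test. ZW10 had 888, 645 and 709.7 with DMSO and 572, 629 and 570.3 with the drug, in normalized counts of replicates 1, 2 and 3, with no overlap and a log2 fold change of -0.33 (95% interval from -0.56 to -0.10, adjusted p = 0.109 by limma). ZWILCH had a log2 fold change of -0.18 (95% interval from -0.37 to 0.02, adjusted p = 0.310 by limma), and its drug-treated libraries lay between 1166 and 1194 normalized counts, overlapping DMSO replicate 2. CENPF, a large coiled-coil protein of G2 and mitosis, had the highest mean of the 44 genes, with 20260.0, 15820.1 and 16286 with DMSO and 13680.1, 14722 and 14581 with the drug, in normalized counts of replicates 1, 2 and 3. No drug-treated library overlapped DMSO, but DMSO replicate 1 was far above the other DMSO libraries, and the log2 fold change of -0.28 (95% interval from -0.45 to -0.10, adjusted p = 0.0811 by limma) did not pass. Without that library CENPF stood at -0.16 and passed (adjusted p = 0.00318 by limma). CENPE, the kinesin that moves chromosomes to the spindle equator, had 3909, 2958 and 3098 with DMSO and 2688, 3064 and 3022 with the drug, in normalized counts of replicates 1, 2 and 3. DMSO replicate 1 alone was high, the other DMSO libraries overlapped with the drug-treated ones, and the log2 fold change went from -0.17 to -0.05 without it. ZW10 and ZWILCH went to -0.20 and -0.06 without it, and neither passed.

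The Ska complex, which strengthens the hold of the Ndc80 complex on shortening microtubules, fell in each of its 3 members. SKA3, on chromosome 13 from 21153595 to 21176552, had normalized counts of 1674, 1376 and 1437 with DMSO (replicates 1, 2 and 3) and of 1017, 1086 and 1184 with the drug (replicates 1, 2 and 3). SKA1, on chromosome 18 from 50375040 to 50394168, had 852, 751 and 735 with DMSO and 572, 594 and 570.3 with the drug, in normalized counts of replicates 1, 2 and 3. In both genes the groups were clearly apart, and the 3 drug-treated values of SKA1 were within 570.3 to 594 normalized counts. SKA3 fell from 1496 ± 158 to 1095 ± 83.7 (mean ± SD of normalized counts, n = 3 each), a change of -0.45 on the log2 scale (SE 0.08, adjusted p = 0.0125 by limma), and SKA1 fell from 779.5 ± 63.6 to 579 ± 13.6 (mean ± SD of normalized counts, n = 3 each), a change of -0.43 on the log2 scale (SE 0.08, adjusted p = 0.0122 by limma). SKA2, on chromosome 17 from 59109857 to 59155260, had the highest mean of the complex, with 1867, 1647 and 1682 with DMSO and 1409, 1401 and 1449.7 with the drug, in normalized counts of replicates 1, 2 and 3. It did not overlap either and changed less, with a change of -0.28 on the log2 scale (SE 0.07, adjusted p = 0.0360 by limma). Without DMSO replicate 1, the fold changes of SKA3, SKA1 and SKA2 were -0.36, -0.36 and -0.23, with an adjusted p of 4.4e-06, 8.5e-05 and 7.0e-04 by limma.

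Of the 6 checkpoint genes, BUB3 passed the test with all 6 libraries, and BUB3, MAD2L1 and TTK passed it without DMSO replicate 1. BUB3, the adaptor that binds phosphorylated KNL1, had 3708, 3308 and 3274 with DMSO and 2799, 2829.6 and 2983 with the drug, in normalized counts of replicates 1, 2 and 3. Its groups did not overlap, and the mean fell from 3429.9 ± 242 to 2870.2 ± 98.5 (mean ± SD of normalized counts, n = 3 each), a change of -0.26 on the log2 scale (SE 0.06, adjusted p = 0.0466 by limma). MAD2L1, which encodes the MAD2 protein that inhibits CDC20 and had the highest mean of the 6, had 3803, 3346 and 3441 with DMSO and 2823, 3244 and 3118 with the drug, in normalized counts of replicates 1, 2 and 3. Here the drug-treated libraries were all lower, the highest of them being near the lowest DMSO library, and the log2 fold change was -0.21 (95% interval from -0.36 to -0.06, adjusted p = 0.128 by limma). The kinases BUB1 and TTK and the inhibitor BUB1B had log2 fold changes of -0.20, -0.29 and -0.21, with no overlap and an adjusted p of 0.183, 0.121 and 0.156 in limma. In all of these DMSO replicate 1 was the highest library, and without it BUB1 and BUB1B stood at -0.11 and -0.12 and did not pass. TTK then stood at -0.17 and MAD2L1 at -0.15, with an adjusted p of 0.0348 and 0.0208 by limma.

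MAD1L1, which encodes the platform that converts MAD2, was the exception. It had 9, 15 and 20 reads in DMSO replicates 1, 2 and 3 and 31, 20 and 22 reads in the drug-treated replicates, that is 11.3, 15.0 and 16.7 against 26.6, 21.7 and 22.0 normalized counts. The drug-treated values were all higher, an order that 10.9% of all genes tested showed, but few reads stand behind them, and the log2 fold change of 0.68 (95% interval from 0.05 to 1.31, adjusted p = 0.233 by limma) did not pass the test. On hg38, 99.7% of the canonical MAD1L1 transcript is covered on the same strand by another protein-coding gene of GENCODE, ENSG00000286192. The reads on shared exons cannot be assigned from these values, so that the level and the fold change of MAD1L1 are uncertain.

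The chromosomal passenger complex fell in 2 of 4 members. AURKB, its kinase, on chromosome 17 from 8204733 to 8210600, had normalized counts of 1692, 1911 and 1841 with DMSO (replicates 1, 2 and 3) and of 1430.1, 1434 and 1539.8 with the drug (replicates 1, 2 and 3). INCENP, the scaffold that activates the kinase, on chromosome 11 from 62123998 to 62153169, had 3449, 3796 and 3755 with DMSO and 3038, 2999 and 3029 with the drug, in normalized counts of replicates 1, 2 and 3. In both genes DMSO replicate 1 was the lowest DMSO library and the groups still did not overlap, and the drug-treated values of INCENP lay between 2999 and 3038. AURKB fell from 1815 ± 112 to 1468 ± 62.1 (mean ± SD of normalized counts, n = 3 each), a change of -0.30 on the log2 scale (SE 0.07, adjusted p = 0.0283 by limma), and INCENP fell from 3666 ± 189.9 to 3022 ± 20.4 (mean ± SD of normalized counts, n = 3 each), a change of -0.28 on the log2 scale (SE 0.06, adjusted p = 0.0226 by limma). BIRC5, which encodes survivin and had the highest mean of the complex, had 6012, 6676 and 6462 with DMSO and 5766, 6144 and 5489 with the drug, in normalized counts of replicates 1, 2 and 3. Drug-treated replicate 2 lay above DMSO replicate 1, and the log2 fold change was -0.14 (95% interval from -0.27 to -0.00, adjusted p = 0.253 by limma). CDCA8, which encodes borealin, did not overlap between groups and had a log2 fold change of -0.21 (95% interval from -0.34 to -0.07, adjusted p = 0.0902 by limma). Without DMSO replicate 1, the fold changes of AURKB, INCENP and BIRC5 moved away from 0, to -0.35, -0.32 and -0.18, that of CDCA8 was -0.18, and all 4 genes passed the test (adjusted p = 5.8e-07, 1.1e-07, 0.00170 and 0.00444 by limma). The shugoshins SGO1 and SGO2, which shield centromeric cohesin, did not pass it, with log2 fold changes of -0.25 (95% interval from -0.49 to -0.01, adjusted p = 0.256 by limma) and -0.19 (95% interval from -0.37 to 0.00, adjusted p = 0.277 by limma). SGO2, with the higher mean, had 2009, 1579 and 1641 with DMSO and 1419.8, 1553 and 1604 with the drug, in normalized counts of replicates 1, 2 and 3, and its groups overlapped. SGO1 and SGO2 moved to -0.16 and -0.08 without DMSO replicate 1.

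**Figure D3:**
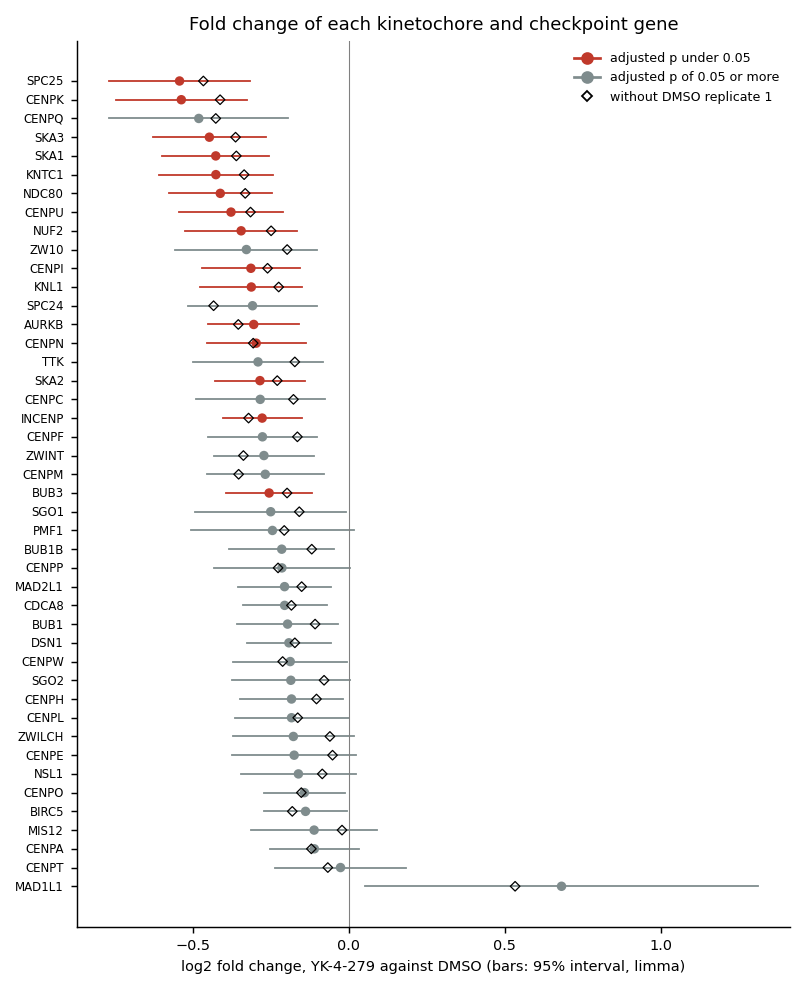
The 44 genes are ordered from the largest fall at the top, the horizontal axis is the log2 fold change of drug against DMSO, circles are fits with all 6 libraries with 95% intervals from limma, and open diamonds are fits without DMSO replicate 1. Red marks the 15 genes with an adjusted p under 0.05. The diamonds of 32 genes lie nearer to 0 than the circles, and those of 12 genes, among them SPC24, ZWINT and CENPM, lie farther from it.

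Between the complexes the sums of normalized counts fell to different degrees, without a test of the difference. The sum over the Ndc80 complex with the drug was 75.9% of that with DMSO and that of the Ska complex 77.2%, the lowest of the 9 groups. Those of the Mis12 complex and the shugoshins were 88.7% and 87.0%. The 5 others lay between 81.2% and 86.7%. Without DMSO replicate 1, the Ndc80 and Ska complexes stood at 78.2% and 81.1% and remained the lowest. The shugoshins, the outer kinetochore motors and corona and the checkpoint then stood at 94.0%, 89.8% and 90.4%, against 87.0%, 82.5% and 85.4% with all libraries, and the passenger complex moved the other way, to 84.9%. CENPF made up most of the motors and corona sum, with a mean of 17455 of 24665 with DMSO.

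Levels can be compared between genes only per length, and RPKM values were taken with the canonical GENCODE transcript. With DMSO, BIRC5 was highest at 119 ± 7.46 (SD, n = 3), followed by CENPF at 81.4 ± 10.4, AURKB at 70.2 ± 4.98, ZWINT at 55.9 ± 4.93 and CDCA8 at 51.1 ± 1.35. The neighbours CENPF and AURKB, and likewise ZWINT and CDCA8, did not differ beyond their spread. With the drug the levels of these 5 were 112 ± 4.96, 69.4 ± 2.34, 58.9 ± 2.99, 47.9 ± 2.60 and 46.0 ± 1.77, in the same order. There CENPF and AURKB lay apart by more than their spread, while ZWINT and CDCA8 did not. Within the Ndc80 complex, whose subunits are used in equal numbers, DMSO levels per length were 34.8 ± 3.18 for NDC80, 28.3 ± 3.03 for NUF2, 28.2 ± 2.49 for SPC25 and 20.4 ± 3.13 for SPC24. NUF2 and SPC25 did not differ beyond their spread. The drug-treated levels of these genes were 27.0 ± 0.770, 23.1 ± 0.745, 20.1 ± 2.78 and 16.9 ± 0.268. At the low end were CENPP at 1.85 ± 0.0574 and SGO1 at 4.59 ± 0.477 besides MAD1L1. The canonical NSL1 transcript has 13115 bases, and where a shorter form is used the level of NSL1 (4.11 ± 0.338) is understated.

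**Figure D4:**
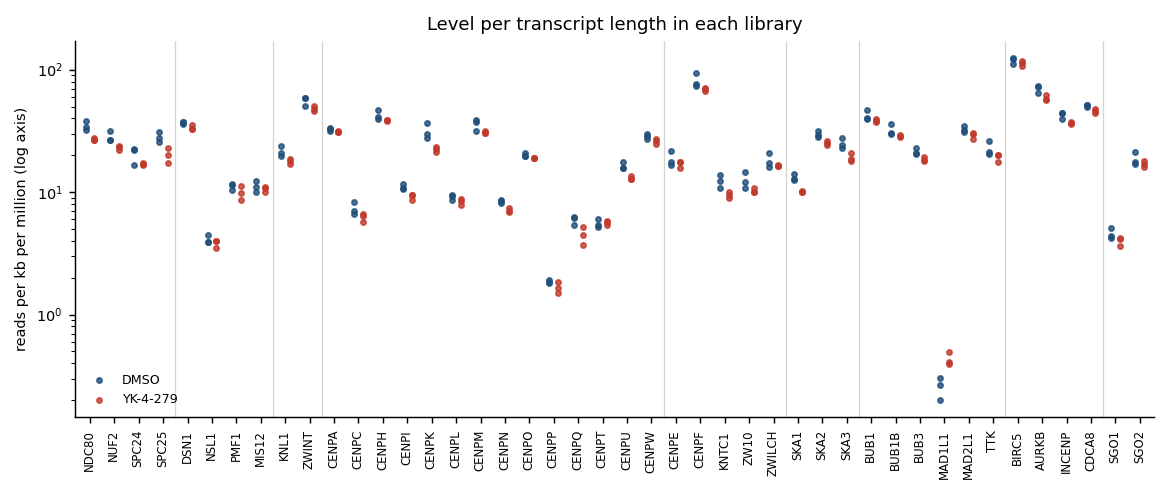
RPKM on the canonical transcript, on a log axis, for the 44 genes in the order of their complexes (grey lines between them), with 1 point for each library, blue for DMSO and red for the drug. BIRC5 is highest and MAD1L1 lowest, and the distance between genes is far larger than that between the groups.

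Libraries of the same group differed among themselves by the base composition of the transcript, most of all DMSO replicate 1. DMSO replicate 1 was the highest of the 3 DMSO libraries in 30 of the 44 genes (68.2%, against 45.1% of all genes tested) and the lowest in 12, while it was the lowest in 39.5% of all genes tested. The 30 had a median GC content of 40.0% and the 12, among them SPC24, ZWINT, CENPM, AURKB, INCENP and BIRC5, one of 52.3%. Across the 44 genes the log2 difference of DMSO replicate 1 from the mean of the others had a Spearman correlation of -0.73 with GC content, and across 13705 genes tested one of -0.62. These genes share the same libraries, and the correlations are descriptions. The 44 genes had a median GC content of 41.1%, against 48.5% over all genes tested. The fold change itself had a Spearman correlation of 0.34 with GC content over the 44 genes, and of -0.002 without DMSO replicate 1. After correction of every library for a smooth dependence on GC content and length, 27 of the 44 genes fell, all 15 among them (7.98% of all genes were then called lower). The median log2 fold change over all 44 genes then stood at -0.21. The spread was wider among DMSO libraries, with a median coefficient of variation of 9.67% over the 44 genes, than among the drug-treated ones, with 4.94%. Drug-treated replicate 1 was the lowest of its group in 29 of the 44 genes, against 36.6% of all genes tested. Its difference from the mean of the other drug-treated libraries had a Spearman correlation of 0.285 with GC content across 13705 genes, opposite in sign to DMSO replicate 1. Across the 44 genes it was 0.24. For drug-treated replicates 2 and 3 the correlations were -0.10 and -0.18 across 13705 genes, and 0.008 and -0.44 across the 44. The part of this in the fold changes was not tested.

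**Figure D5:**
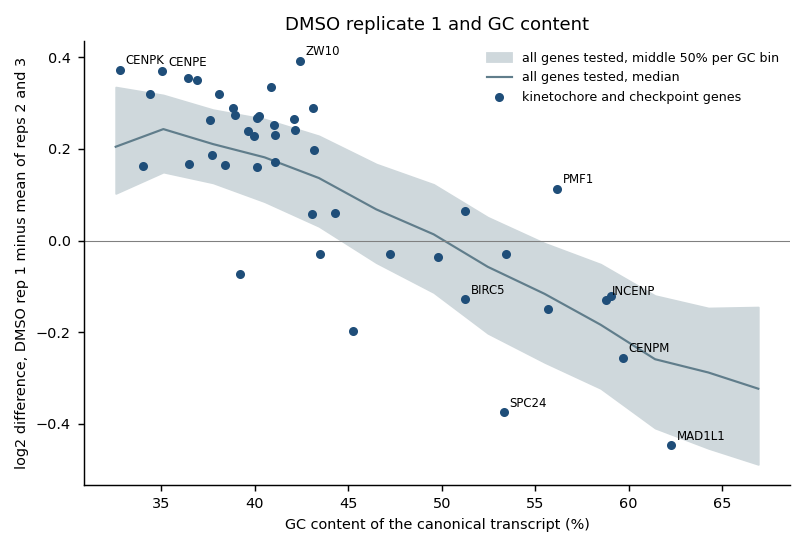
The horizontal axis is the GC content of the canonical transcript in percent, and the vertical axis the log2 difference of DMSO replicate 1 from the mean of DMSO replicates 2 and 3. Points are the 44 genes, the line is the median and the band the middle 50% of all genes tested in bins of GC content. The points fall from CENPK and CENPE at upper left to MAD1L1 at lower right, in the direction of the median line, and many lie outside the band.

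Another 54 genes of the pathway, from lists of centromere loading, checkpoint effectors, microtubule attachment and cohesion, were read for comparison. Of these 9 fell, none rose and 45 did not pass the test (16.7% fell, against 2.15% of all genes tested), with a median log2 fold change of -0.13. In 26 of the 54 (48.1%, against 15.1% of all genes tested) all values with the drug were under those with DMSO. Among the centromere genes, HJURP, the chaperone that deposits CENP-A, had 3365, 3011 and 3105 with DMSO and 2369, 2485 and 2485 with the drug, in normalized counts of replicates 1, 2 and 3. It did not overlap between groups, with a change of -0.37 on the log2 scale (SE 0.06, adjusted p = 0.00786 by limma), while CENPA itself stood at -0.11. ITGB3BP, also called CENP-R, fell with a change of -0.47 on the log2 scale (SE 0.08, adjusted p = 0.0107 by limma).

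Of the 15 checkpoint effectors and mitotic kinases 3 fell. FBXO5, an inhibitor of the anaphase-promoting complex, had 2033, 1637 and 1704 with DMSO and 1109.7, 1279 and 1298 with the drug, in normalized counts of replicates 1, 2 and 3, and CDK1, the mitotic kinase, had 3496, 2996 and 3189 with DMSO and 2141, 2382 and 2531 with the drug, in normalized counts of replicates 1, 2 and 3. Their groups were well apart, at -0.54 and -0.46 on the log2 scale (adjusted p = 0.00741 and 0.00741 by limma). UBE2C, the ubiquitin-conjugating enzyme of that complex, had the highest mean and a change of -0.29 on the log2 scale (SE 0.06, adjusted p = 0.0171 by limma). CDC20, the direct target of the checkpoint, had 4629, 5106 and 4694 with DMSO and 4685, 5239.8 and 4696 with the drug, in normalized counts of replicates 1, 2 and 3. Its groups overlapped, and its log2 fold change was 0.02 (95% interval from -0.12 to 0.16, adjusted p = 0.910 by limma). That value was -0.0085 without DMSO replicate 1, on the other side of 0. CDC20 falls outside the rule by which genes were named and was chosen after its values were seen.

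Among 15 microtubule attachment genes, KIF2C, a kinesin that takes microtubules apart at centromeres, was the only one to fall with all 6 libraries, with a change of -0.27 on the log2 scale (SE 0.06, adjusted p = 0.0355 by limma). MAPRE1, a plus-end binding protein and the most abundant by mean count, stood at a log2 fold change of -0.18 (95% interval from -0.32 to -0.04, adjusted p = 0.142 by limma). In the 14 cohesion genes 3 fell. ESCO2, the acetyltransferase that locks cohesin in S phase, had 959.5, 794 and 818 with DMSO and 554, 575 and 568 with the drug, in normalized counts of replicates 1, 2 and 3. Its groups were far apart, with a change of -0.59 on the log2 scale (SE 0.08, adjusted p = 0.00360 by limma), below that of each of the 44 genes. CDCA5, which encodes sororin, fell with a change of -0.32 on the log2 scale (SE 0.06, adjusted p = 0.0153 by limma), the cohesin subunit SMC1A, named because so few passed, fell with a change of -0.29 on the log2 scale (SE 0.06, adjusted p = 0.0152 by limma), and STAG2, most abundant by mean count, stood at a log2 fold change of -0.27 (95% interval from -0.43 to -0.10, adjusted p = 0.0778 by limma). MAPRE1 and STAG2 passed the test without DMSO replicate 1, at -0.11 and -0.16 (adjusted p = 0.0481 and 0.00291 by limma).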

How the data were processed

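Directional mRNA libraries of Rh30 cells, 3 per group, were compared. Per the labels and methods, the authors trimmed reads with BBDuk, aligned them to hg38 with STAR 2.7.9a and used DESeq2 1.44.0. The annotation and the strand setting of counting are not given in the sources used here. The deposited signal values are gene counts divided by a size factor of each library (normalized counts). Dividing by the step of 1 read gave whole reads for 100.0% of values (tolerance 0.01). Of 35269 rows, 1 had no gene name (at most 6 reads in a library) and was left out.

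Genes with a mean of at least 10 normalized counts (13930) were tested on log2(normalized count + 1) with limma 3.58.1 (eBayes with trend, two-sided, Benjamini-Hochberg, calls at an adjusted p under 0.05) in R 4.3.3. This scale understates changes of low genes. edgeR 4.0.16 and DESeq2 1.42.0 were run on the recovered reads, and the fit was tested on simulated data. Gene models were GENCODE for hg38, and promoters were RefSeq GRCh38.p14. Every member could be named. In each group of them, the gene with the highest mean and the 3 largest called changes were to be given in every library. CENPN, SPC24, ZWINT, CENPA, CENPQ, CENPT, ZW10, CENPE and MAD1L1 were given likewise after their values were seen. In each pathway list, the highest gene and the 2 largest called changes were named. The members and lists were chosen with earlier results of these data known. Other pseudocounts, filters, scalings, a replicate block and leaving out each library were tried, and a correction for GC content and length was added after seeing the data.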

Additional observations from a re-analysis of the deposited data

How the results depend on the processing

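Against 475 genes called over the whole matrix, quantile normalization called 277, limma without the trend on expression 33, the fit with a replicate block 180 and the fit corrected for GC content and length 1674, and leaving out 1 library at a time gave 19 to 1823. Of the 44 kinetochore and checkpoint genes, against 15 these settings called 7, 0, 6 and 27, and leaving out 1 library 0 to 26. Of the 54 other pathway genes, against 9, limma without the trend called 0, the fit corrected for GC content and length 22, and leaving out 1 library gave 0 to 20. The cause of these differences was not tested. Calls for the 44 genes were all lower in each setting that made any. The median log2 fold change of the 44 genes lay between -0.28 and -0.20 over all settings. The log2 fold change of CENPT lay between -0.067 and 0.032 when 1 library was left out, and it turned to 0.032 without DMSO replicate 3 and to 0.014 without drug replicate 1, in neither case past the threshold. No pairing by replicate number was seen, as the deviations of same-numbered libraries from their group means correlated at -0.10, -0.03 and -0.03. With 3 libraries in each group these values cannot exclude a pairing, and the replicate block rests on a shared number alone. Over all genes 299 calls were lower and 176 higher, against 145 and 132 with quantile normalization. Higher calls outnumbered lower ones in limma without the trend (3 lower, 30 higher) and without drug replicate 1 (4 and 15), 2 (7 and 16) or 3 (18 and 28). MAD1L1 had at most 31 reads in a library, so that its values are imprecise, and the cause of its low count was not tested.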
